A study of Mus musculus with 2 samples.

Results

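Cd44 and 4 genes of the Ly6 family, Ly6c1, Ly6a, Ly6e and Ly6d, were followed in CD8+CD122+ and CD8+CD122- T cells from the spleens of C57BL/6 mice. The members were the probes that carry one of these gene names on the arrays. By the names printed in the scanner files this gave 6 of 41174 probes, and the file name Ly6c, which RefSeq lists as an older name of Ly6c1, added 2, so that 8 probes are described, for 5 of the 18943 genes that could be named: 3 of Cd44, 2 of Ly6c1 and 1 each of Ly6a, Ly6e and Ly6d. CD122 is the beta chain shared by the receptors for interleukin 2 and interleukin 15, and the series calls its CD8+CD122+ cells regulatory. Sorted cells of both populations gave messenger RNA that was amplified and hybridised as a pair to each of 2 two-colour Agilent arrays. On array 1 (replicate 1) the CD8+CD122+ sample was Cy5 and the CD8+CD122- sample Cy3, and on array 2 (replicate 2, labelled a second trial) the dyes were exchanged. Both populations share the strain, the organ and the CD8 gate. The labels give neither age nor sex. They do not state if the mice of the trials were different animals, and the spread between arrays may therefore be technical.

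CD44 is the main cell surface receptor for hyaluronan, a sugar polymer of the extracellular matrix. T cells that have met antigen carry more of it than naive cells, and high CD44 is the usual mark of memory CD8 T cells in mice. Ly6 proteins are small surface antigens held in the membrane by a glycosylphosphatidylinositol (GPI) anchor. Many of their genes lie side by side on mouse chromosome 15. Ly6C, the product of Ly6c1 and its close copy Ly6c2, marks memory CD8 T cells and inflammatory monocytes. Ly6A is Sca-1, known from blood stem cells and induced on T cells by interferon. Ly6E was described as an antigen of immature thymocytes, and Ly6D marks early B lineage cells.

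Cd44 and Ly6c1 were the members with the large differences, and the start regions of both genes are shown here because each had 2 probes with a 2-fold difference in the same direction on both arrays. The sequences are those of RefSeq (GRCm38.p6), from 250 bases before to 50 after the annotated start, and the table used here held an entry for 2 of the 5 genes. Cd44 lies on the minus strand at chr2:102901616-102901915, and the first of 2 annotated Ly6c1 starts on the minus strand at chr15:75048788-75049087. Capitals mark matches on either strand to any of 6 motifs. The T-box half-site was searched as TCACAC, the core site of Runx factors as TGTGGT, and the GAS element bound by STAT proteins as TTCNNNGAA. The core of the interferon response element (ISRE) was searched as a pair of GAAA blocks with 2 free bases between them, the GC box bound by Sp factors as GGGCGG, and the box of the core promoter named for its letters as TATAAA.
Cd44: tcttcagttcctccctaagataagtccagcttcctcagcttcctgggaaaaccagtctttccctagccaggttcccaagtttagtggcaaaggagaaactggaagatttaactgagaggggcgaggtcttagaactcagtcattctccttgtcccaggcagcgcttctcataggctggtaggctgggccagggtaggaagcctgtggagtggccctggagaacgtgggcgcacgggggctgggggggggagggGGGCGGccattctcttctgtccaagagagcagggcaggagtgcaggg
Ly6c1: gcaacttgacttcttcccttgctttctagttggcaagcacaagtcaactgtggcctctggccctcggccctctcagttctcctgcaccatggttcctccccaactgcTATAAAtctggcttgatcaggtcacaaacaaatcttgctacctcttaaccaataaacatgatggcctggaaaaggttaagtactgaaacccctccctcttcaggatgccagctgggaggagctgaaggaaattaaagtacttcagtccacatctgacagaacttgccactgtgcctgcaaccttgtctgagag
The Cd44 window held 1 GC box, starting 3 bases past the start, and the Ly6c1 window 1 TATAAA box, starting 143 bases before it. No matches overlapped. Of 32851 promoter windows of the same length, 35.7% held the GC box letters and 13.6% TATAAA. The share was 14.5% for the T-box half-site, 16.8% for the Runx core, 8.3% for the GAS element and 3.44% for the ISRE core, and neither printed window held any of these 4. The window of the second annotated Ly6c1 start, not printed here, held 1 T-box half-site, on the opposite strand and starting 111 bases before that start. Cd44 had 6 CpG pairs and Ly6c1 had 1, against a median of 7 over all windows. These matches are a description of the letters only. The same window of Ly6c2 shared 78.2% of 266 aligned bases with that of Ly6c1, and held 1 Runx core match.

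Every ratio below is CD8+CD122+ over CD8+CD122- on the log2 scale, after background correction with an offset of 50 that shrinks the ratios of dim probes. In the deposited value table the ratios run the other way, CD8+CD122- over CD8+CD122+. Mean spot signals are printed before background correction and dye normalisation, so dividing them does not give the ratio. Statements that the populations overlap or separate compare these signals across dyes and arrays and carry no test. On each array, both populations gave a signal well above background with all 8 probes, and 0 were saturated. The CD8+CD122+ signal was the higher one by 2-fold or more on each array with 4 of the 8, a rule that 0.253% of the 30794 probes tested passed. None of the 8 was at least 2-fold lower on both arrays, a rule passed by 0.0812% of all probes. By sign alone, 4 members were higher on both arrays (27.8% of all probes), 1 was lower on both (25.6%), and 3 had opposite signs (46.6%). limma, fitted over all probes with Benjamini-Hochberg adjustment, called 0% of them (0 of 30794) at an adjusted p under 0.05, and 0 of the 8. At an unadjusted p under 0.05 it found 1884 probes (6.12%), and 5 of the 8 members. With 2 arrays and 1 residual degree of freedom, size on both arrays is given beside each limma value.

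**Figure D1:**
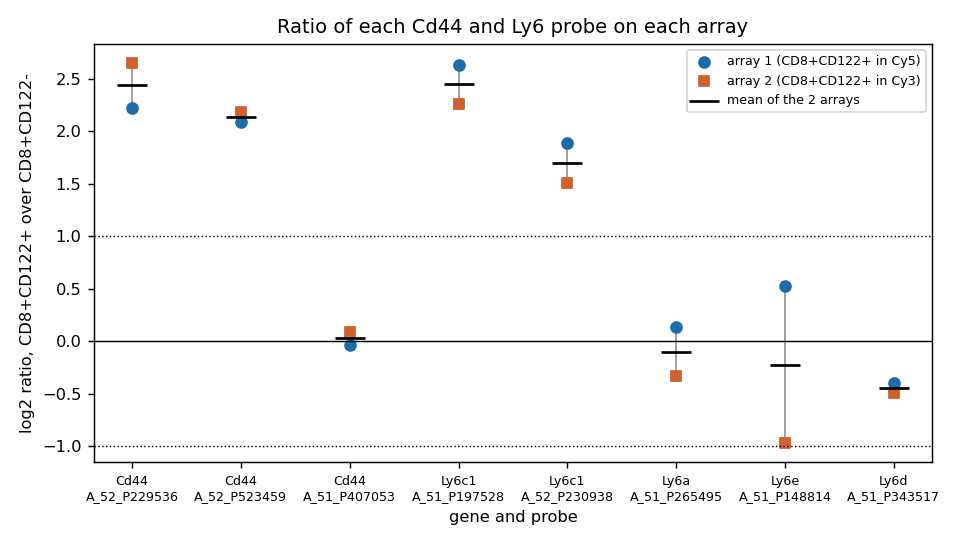
Log2 ratio of CD8+CD122+ over CD8+CD122- (vertical axis) for the 8 probes (horizontal axis), with a point for array 1, a square for array 2 and a bar for their mean; dotted lines mark 2-fold. The pair of upper Cd44 probes and both Ly6c1 probes lie above 2-fold on both arrays, between 1.50 and 2.65, and Ly6e lies on opposite sides of 0.

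Cd44 signal was several-fold higher in CD8+CD122+ cells with 2 of its 3 probes, and the third showed almost no difference. With probe A_52_P229536 the mean spot signal was 726 in CD8+CD122+ and 151 in CD8+CD122- cells on array 1, and 1221 and 312 on array 2. CD8+CD122+ was the brighter population whichever dye it carried, and its lower value exceeded the higher one of CD8+CD122-. The log2 ratios were 2.22 on array 1 and 2.65 on array 2, with a mean of 2.44 ± 0.30 (SD, n = 2 arrays; 5.41-fold; limma's adjusted p 0.314). Probe A_52_P523459 gave signals of 592 and 138 on array 1 and 701 and 240 on array 2, again without overlap between the populations. Its log2 ratios were 2.08 and 2.19, a mean of 2.13 ± 0.07 (SD, n = 2 arrays; 4.39-fold; limma's adjusted p 0.228, the lowest of the 8 members). In sorted bulk RNA more cells with the transcript and more transcript per cell cannot be told apart, here and for every member.

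The third Cd44 probe, A_51_P407053, disagreed with the other pair. Its mean spot signals were 105 in CD8+CD122+ and 114 in CD8+CD122- cells on array 1, and 131 and 134 on array 2. The populations did not separate, and the log2 ratios were -0.03 and 0.09 (mean 0.03 ± 0.09, SD, n = 2 arrays; limma's adjusted p 0.964). These signals were low. The 314 negative control spots had median signals of 65.4 and 83.4 for CD8+CD122+ and CD8+CD122- on array 1 and of 90.0 and 82.5 on array 2, so the probe stood between 30.6 and 51.2 units above them, as against 67.3 to 1131 units for A_52_P229536. The mean log2 ratio of this probe was 0.05 with an offset of 10, 0.06 with the processed signals and 0.02 without background correction. At so low a signal, a ratio near 0 does not show equal expression. The gap between A_52_P523459 and this probe was 2.12 log2 units on array 1 and 2.10 on array 2, and the gap between A_52_P229536 and this probe 2.26 and 2.56.

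The 3 Cd44 probes also differ in position and in name. The coordinates in the file of array 2 (the sources used here name no genome build for them) place A_52_P523459 at chr2:102516265-102516324, A_52_P229536 at chr2:102517505-102517564 and the disagreeing A_51_P407053 at chr2:102539018-102539077. The concordant pair is thus 1.2 kb apart, and the third probe lies 21.5 kb from the nearer of them, on the side of the gene's start, since Cd44 is on the minus strand. The file of array 1 gave none of the 3 the name Cd44, and named them by cDNA clones or sequence entries. In the file of array 2 the concordant pair is listed under full-length cDNAs of embryo and neonatal skin and the third probe under the reference Cd44 transcript. Which Cd44 isoforms or exons each probe detects was not tested. Among 6200 named genes with several tested probes, the means of a gene's highest and lowest probe were 0.112 log2 units apart at the median, and the 2.41 of Cd44 was exceeded by 2 genes. Of 27 such genes with a probe at least 2-fold higher on both arrays, 9, Cd44 included, had another probe within 0.2 of 0.

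Ly6c1 signal was likewise several-fold higher in CD8+CD122+ cells, with both of its probes. Probe A_51_P197528 had mean spot signals of 17527 in CD8+CD122+ and 1812 in CD8+CD122- cells on array 1, and of 7082 and 2388 on array 2. Every CD8+CD122+ value lay above every CD8+CD122- value. The log2 ratios were 2.63 and 2.26, a mean of 2.45 ± 0.26 (SD, n = 2 arrays; 5.45-fold; limma's adjusted p 0.308), and 0.0617% of tested probes had a higher mean. Probe A_52_P230938 gave signals of 4323 and 829 on array 1 and 1517 and 840 on array 2, also without overlap. Its log2 ratios were 1.89 and 1.50, a mean of 1.70 ± 0.27 (SD, n = 2 arrays; 3.24-fold; limma's adjusted p 0.397).

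Both Ly6c1 probes therefore had the same direction and differed in size. The first exceeded the second by 0.74 log2 units on array 1 and by 0.76 on array 2. The file of array 2 lists the second at chr15:75077988-75078047 and the first, under a Ly6C variant cDNA, on unplaced sequence (chrUn_random:69272488-69272547). No probe of the array was matched to Ly6c2. Because Ly6c1 and Ly6c2 are close copies, the share of each in these signals is uncertain.

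**Figure D2:**
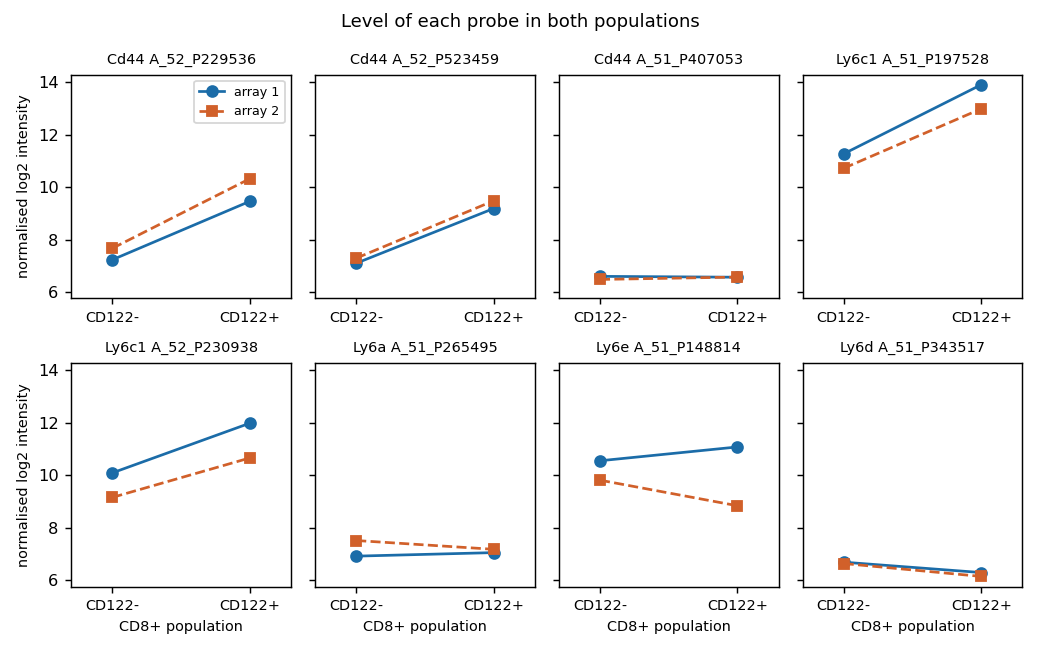
Normalised log2 intensity (vertical axis, after loess and quantile scaling of brightness between arrays) of each probe in CD8+CD122- and CD8+CD122+ cells, with array 1 as circles and solid lines and array 2 as squares and dashed lines. Lines of the 2 concordant Cd44 probes and of both Ly6c1 probes slope up on both arrays, those of Ly6d slope down on both, and those of Ly6e cross in direction.

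The probes of Ly6a, Ly6e and Ly6d are listed on chromosome 15 in the same file, at chr15:75027829-75027888, chr15:74991743-74991802 and chr15:74793790-74793849. Ly6a, the gene of Sca-1, had small ratios of opposite sign. Probe A_51_P265495 had mean spot signals of 142 in CD8+CD122+ and 132 in CD8+CD122- cells on array 1, and of 176 and 264 on array 2. The populations overlapped. The log2 ratios were 0.13 and -0.33 (mean -0.10 ± 0.33, SD, n = 2 arrays; limma's adjusted p 0.940). Ly6e had the widest disagreement between arrays. Probe A_51_P148814 gave 2305 in CD8+CD122+ and 1136 in CD8+CD122- cells on array 1, and 462 and 1306 on array 2. CD8+CD122+ was thus the brighter population on array 1 and the dimmer one on array 2.

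The log2 ratios of Ly6e were 0.53 and -0.97, and the mean of -0.22 ± 1.06 (SD, n = 2 arrays; limma's adjusted p 0.956) summarises neither array. The gap between the arrays was wider than that of 99.6% of tested probes. Feature Extraction's own error of the ratio, taken from the deposited scanner files and covering the spot only, was 0.17 on array 1 and 0.18 on array 2 in log2 units, against its ratios of 0.55 and -1.03. Read by dye, Cy5 exceeded Cy3 for Ly6e on both arrays, by 0.53 and 0.97, and 4 of 30794 probes, Ly6e among them, had Cy5 ratios at least as high as these on both. Ly6a too was brighter in Cy5 on both arrays, by 0.13 and 0.33, as were 24.2% of all probes. A dye effect on these probes and a true difference between the trials cannot be told apart with 1 array per dye orientation.

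**Figure D3:**
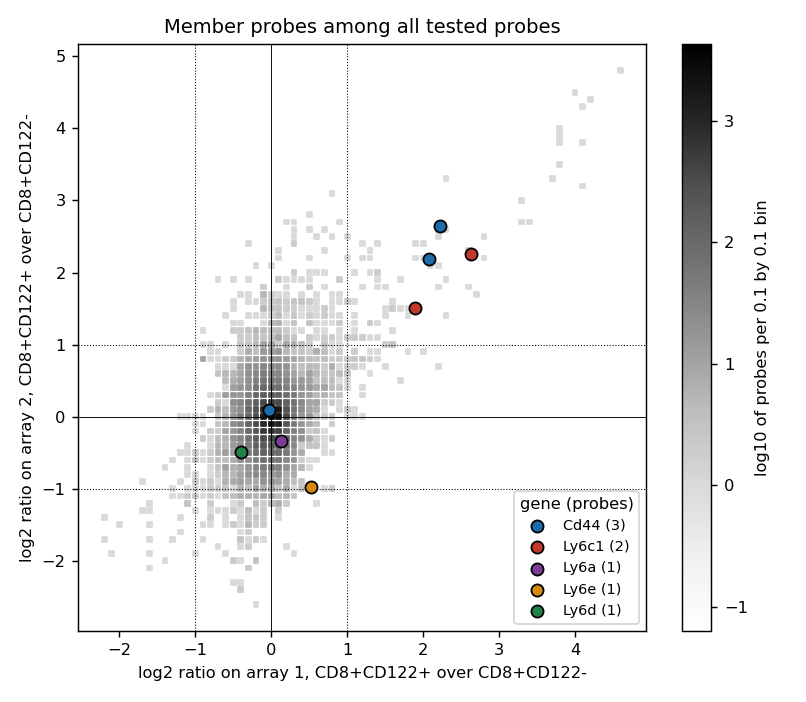
Log2 ratio on array 1 (horizontal axis) against array 2 (vertical axis) for all 30794 tested probes, as grey bins of 0.1 by 0.1 shaded by the log10 number of probes, with the 8 member probes in colour and dotted lines at 2-fold. Pairs of Cd44 and Ly6c1 probes sit in the upper right corner beyond 2-fold on both axes, the third Cd44 probe near the origin, and Ly6e in the lower right quadrant.

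Ly6d was the member lower in CD8+CD122+ cells on both arrays, at a low signal. Probe A_51_P343517 had mean spot signals of 87.7 in CD8+CD122+ and 121 in CD8+CD122- cells on array 1, and of 107 and 144 on array 2. The highest CD8+CD122+ value lay below the lowest CD8+CD122- value, and the 4 values stood 17.0 to 61.2 units above the medians of the negative controls. The log2 ratios were -0.40 and -0.49, a mean of -0.44 ± 0.07 (SD, n = 2 arrays; limma's adjusted p 0.624), with a negative sign on both arrays as in 25.6% of all probes. The size of this ratio depended on the background step. With the deposited processed signals it was -1.10 on array 1 and -1.16 on array 2, a 2.19-fold difference that passed the 2-fold rule, as did 0.276% of all probes in the lower direction and 0.646% in the higher, the same 4 member probes among the latter. Feature Extraction's errors of those ratios were 0.30 and 0.51.

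Since Ly6d marks B lineage cells, the B cell markers were read beside it. Of 10 genes 9 were tested and 0 were 2-fold apart on both arrays, where 0.301% of all genes were higher and 0.105% lower. The median log2 ratio was 0.04, with 0.01 on array 1 and 0.08 on array 2. The defining genes Ms4a1 (0.08 ± 0.04) and Cd79a (0.02 ± 0.13; SD, n = 2 arrays) were near 0, and the lowest, Cd79b, encoding a chain of the B cell receptor, had -0.48 ± 0.39. Cd79a was dim, with signals of 96.6 in CD8+CD122+ and 110 in CD8+CD122- cells on array 1 and of 138 and 140 on array 2. At such signals a ratio near 0 does not show equal levels. The summed level of the list in CD8+CD122+ was 0.95 times that in CD8+CD122- cells on array 1 and 0.90 times on array 2. The part of B cells in the Ly6d ratio was not tested further.

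Ly6C is also borne by monocytes, and Ly6c1, Ly6a and Ly6e by endothelium, so markers of these cells were read beside the Ly6c1 ratio. Of 7 tested monocyte and macrophage markers 0 passed the 2-fold rule, where 0.301% of all genes passed it as higher and 0.105% as lower. The median was 0.05 on each array. The summed level in CD8+CD122+ cells was 1.46 times that of CD8+CD122- cells on array 1 and 1.20 times on array 2. Cd14 (0.05), Adgre1 (0.00) and Cd68 (0.02) had mean log2 ratios near 0. Cd68 was dim, with signals from 102 to 131, where a ratio near 0 does not show equal levels. The same limit holds for Cd14 (126 to 151), Fcgr1 (97.6 to 127) and Vcam1 (104 to 168). The median of the list is the value of Cd14, so it does not show equal levels either. The chemokine receptor gene Ccr2, which memory T cells also express, had 0.98 ± 0.28, and Lyz2, the lysozyme gene of myeloid cells, 0.55 ± 0.31 (SD, n = 2 arrays). In CD8+CD122- cells the Ccr2 signals, 87.9 on array 1 and 93.3 on array 2, were near the negative control medians of 83.4 and 82.5. Feature Extraction's ratios for Ccr2 were 3.62 and 2.37, above 2-fold on both arrays, with errors of 0.40 and 0.68. For Lyz2 they were 1.23 and 0.41. Of 7 tested endothelial markers, 0 passed, the median was -0.02, the lowest value was -0.37, and the highest was Egfl7 at 0.03. Their summed level in CD8+CD122+ cells was 0.88 times that of CD8+CD122- cells on array 1 and 0.94 times on array 2. NK cell markers had a median of 0.54 over 6 tested genes, with 1 of them, the T-box gene Eomes, which memory CD8 T cells also express, 2-fold higher (1.33). In the same list the granzyme gene Gzma had 0.99 and 1.65 (mean 1.32) and the Ly49 receptor gene Klra8 1.23 and 0.72 (mean 0.98), and Klrb1c, which encodes NK1.1, had 0.10 ± 0.05. The summed level of the NK list in CD8+CD122+ cells was 1.69 times that of CD8+CD122- cells on array 1 and 1.52 times on array 2. Among the other lists 1 of 6 tested dendritic cell markers was 2-fold higher, the transcription factor gene Zbtb46 (1.37 ± 0.11), and 0 were called among 6 tested markers of plasmacytoid dendritic cells, 3 of neutrophils, 4 of CD4 T cells and 4 of erythroid cells, with medians from -0.02 to 0.12. The CD8 T cell markers, with a median of -0.41 over 8 genes and 0 calls, held Cd8a at -0.61 ± 0.43 and Cd8b1 at -0.67 ± 0.27. The marker of the sort, Il2rb, had 2.60 on array 1 and 2.34 on array 2. The part of other cells in the Ly6c1 ratio was not tested further.

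No other measured gene of the Ly6/uPAR family passed the 2-fold rule. Of 34 other family genes, 28 had a matched probe and 26 were tested. Of these 26, 0 were at least 2-fold higher and 0 at least 2-fold lower on both arrays, where 0.301% and 0.105% of 21902 genes were, each read on its brightest probe (a probe that RefSeq did not name counts under the name in the file). Their median log2 ratio was -0.01, against 0.01 for all genes. Some of the 26 were dim, such as Ly6m with signals from 84.2 to 116 and Cd59a with signals from 84.4 to 120. For such genes a ratio near 0 does not show equal expression. Ly6i and Ly6f, a pair from the chromosome 15 group, had the highest values, with 0.56 and 0.21 (mean 0.38 ± 0.25) and with 0.53 and 0.07 (mean 0.30 ± 0.32; SD, n = 2 arrays). Ly6f was dim, with signals from 99.5 to 168, and Feature Extraction's ratios for it were 1.39 on array 1 and 0.16 on array 2. For Ly6i they were 0.79 and 0.29. The lowest were Lypd6b, a GPI-anchored modulator of nicotinic receptors, at -0.89 ± 0.54, and Plaur, the urokinase receptor gene, at -0.59 ± 0.52 (SD, n = 2 arrays), whose other probe gave -0.18. No probe was matched to Ly6g, the neutrophil antigen gene.

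Among genes that work with CD44, and among splicing factors of its variable exons, 0 passed the 2-fold rule on both arrays. Over all genes 0.301% passed it as higher and 0.105% as lower, so 0 calls in lists this short are no result about them. All 36 genes of the list of ligands, hyaluronan enzymes and partners had a probe and 32 were tested, with 0 called in either direction and a median of -0.02. The highest was Srgn, the gene of serglycin, a granule proteoglycan that binds CD44, with 0.16 on array 1 and 1.23 on array 2 (mean 0.69 ± 0.76, SD, n = 2 arrays), followed by the kinase gene Fyn at 0.39 ± 0.45. The lowest were the hyaluronidase gene Hyal2 at -0.47 ± 0.52 and the hyaluronan synthase gene Has1 at -0.42 ± 0.18. Has1 was dim, with signals from 88.7 to 158, and Feature Extraction's ratios for it were -0.88 on array 1 and -1.30 on array 2. The ERM proteins link CD44 to actin. Ezr had 0.12 ± 0.39, Msn -0.10 ± 0.10 and Rdx -0.27 ± 0.22. Of 15 tested splicing factors that act on the variable exons of Cd44, 0 were called, with a median of 0.03 and values from -0.39 ± 0.27 for Srsf1 and -0.18 ± 0.35 for Hnrnpll to 0.31 ± 0.29 for Ptbp1 and 0.41 ± 0.81 for Tra2b (SD, n = 2 arrays).

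The machinery that makes and attaches the GPI anchor of Ly6 proteins likewise had no called gene, against 0.301% of all genes higher and 0.105% lower. At these shares, 0 calls among so few genes are no result about the machinery. Of 32 genes 26 were tested, with 0 higher, 0 lower and a median of -0.07. Piga, the catalytic subunit of the first step, had -0.32 and -0.74 (mean -0.53 ± 0.29, SD, n = 2 arrays), while its other probe gave -0.11. Pigx, a subunit of the first mannosyltransferase, had -0.39 ± 0.44. The highest, both genes of vesicle transport or mannose donor supply, were Tmed2 at 0.15 ± 0.07 and Dpm1 at 0.14 ± 0.27.

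**Figure D4:**
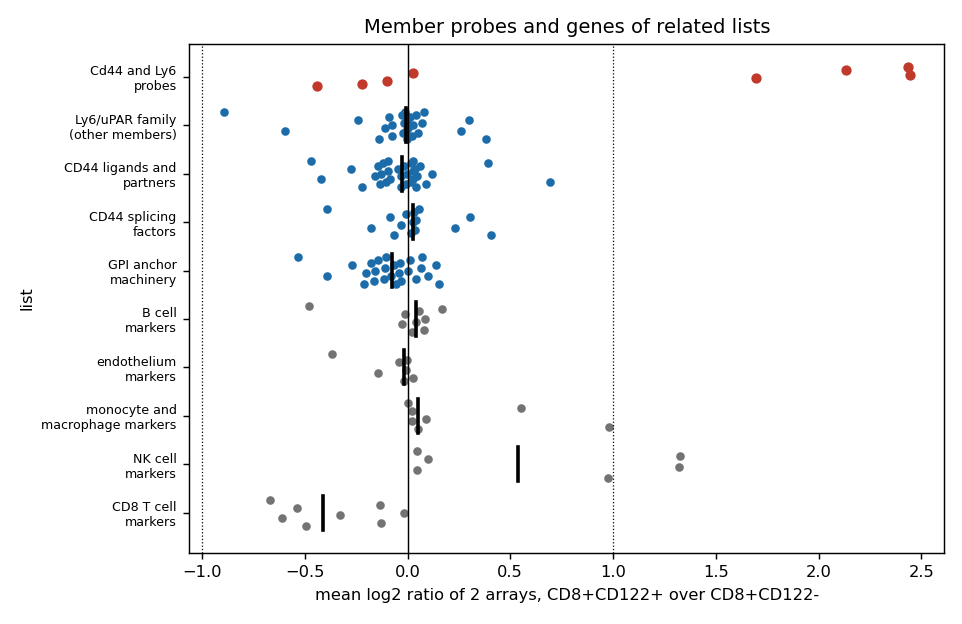
Mean log2 ratio of the 2 arrays (horizontal axis) for the 8 member probes (red), for the tested genes of 4 related lists (blue) and for markers of 5 cell types (grey), with black bars at the medians and dotted lines at 2-fold. Genes of the blue lists stay between -0.89 and 0.69, whereas 4 member probes lie from 1.70 to 2.45.

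By distance between the pairs of array ratios, over 16198 other named genes and with each gene read on its brightest probe (A_52_P229536 for Cd44, A_51_P197528 for Ly6c1), the gene most like Ly6c1 was Il2rb, the marker of the sort, at a distance of 0.09 log2 units. It was followed by the granzyme gene Gzmm (0.22) and 5830411N06Rik (0.27). The genes most like Cd44 were Ahnak (0.06), which encodes a giant scaffold protein, Wdr95 (0.13) and Klrc1 (0.34), the gene of the NKG2A receptor chain. Nearest to Ly6d were Tspo (0.02), Il2rg and Whrn (0.04 each), to Ly6a Arhgap12, Anapc1 and Atp1b1 (0.01 each), and to Ly6e Trub2 (0.08), Mplkip (0.12) and Sgsh (0.16). With 2 points per gene this likeness is coarse, and near 0, where most genes lie, it is common.

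**Figure D5:**
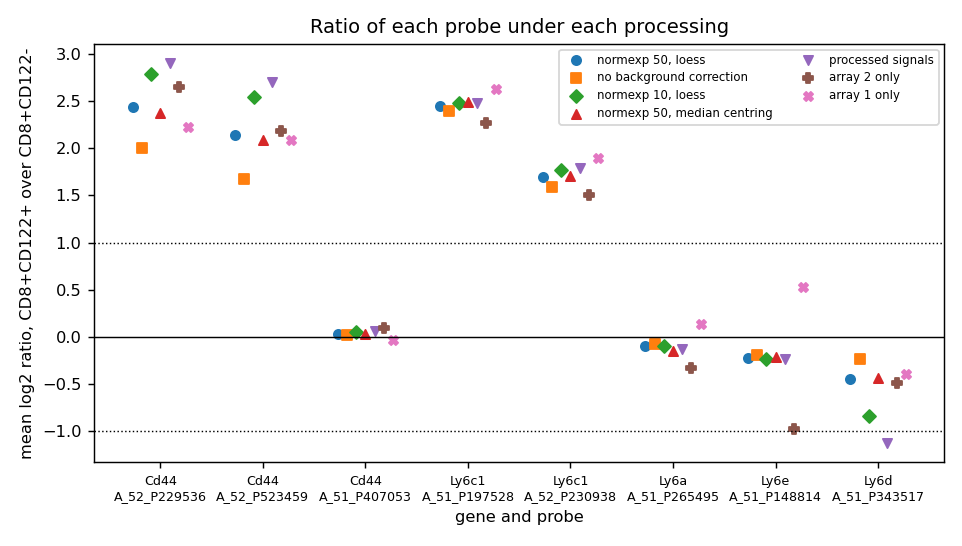
Mean log2 ratio (vertical axis) of each member probe (horizontal axis) under 5 ways of processing and on each array alone, one marker shape for each; dotted lines mark 2-fold. Ratios of both Ly6c1 probes and of 2 Cd44 probes stay above 2-fold in all 7 versions, Ly6d moves between -0.24 and -1.13, and Ly6a, Ly6e and the third Cd44 probe change sign between the arrays.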

How the data were processed

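Each of 2 two-colour Agilent arrays compared CD8+CD122+ with CD8+CD122- cells. The submitters' processing notes name Agilent Feature Extraction; per the file headers, array 1 was read with version A.7.5.1 and array 2 with 8.1.1.1. The deposited scanner files hold the linear intensity of each spot (mean) and of its local background (median), processed signals with background subtracted and dyes normalised, their log10 ratio with its error, and flags of 0 or 1. The authors' deposited value table holds the same log10 ratio, turned to CD8+CD122- over CD8+CD122+. Its columns have a median of 0, and the sources used here do not say if it was centred. Other measured columns were not used.

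Mean intensities were background-corrected with normexp (offset 50) and loess-normalised within each array with limma 3.58.1 in R 4.3.3, giving control spots no weight. Outlier spots were left out, and ratios were turned to CD8+CD122+ over CD8+CD122-. Probes of which 1 population, the same on both arrays, was well above background (30794) were fitted together with lmFit and eBayes (two-sided, Benjamini-Hochberg). No dye term was fitted, since none could be with 2 arrays. The rule of size asks for at least 2-fold in 1 direction on both arrays and carries no p-value. Probes were named through RefSeq (77.5% of 41174), and a gene of a list was read on its brightest tested probe. Beside the member probes, the text names the genes of each list that passed the rule of size or else its 2 highest and 2 lowest, 3 nearest genes per member, and Il2rb, Cd8a and Cd8b1. Ezr, Msn, Rdx, Ly6m, Cd59a and marker genes other than those called were chosen after their values were seen. The number of arrays limits the precision, and so does signal near background for dim probes. Steps were tested on simulated data. Members and lists were chosen with earlier results of these data known. Alternatives are given in the closing section.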

Additional observations from a re-analysis of the deposited data

How the results depend on the processing

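The 4 probes that were 2-fold higher (2 of Cd44, 2 of Ly6c1) stayed so in 7 alternatives: no background correction, an offset of 10, median centring, the processed signals, the deposited value table, no filter on dim probes and a stricter one. The filters leave the ratio of each member probe as it was, and the value table repeats the ratios of the processed signals. These settings are therefore no separate checks of the member ratios. Their mean log2 ratios ran from 2.005 to 2.90 for A_52_P229536, from 1.67 to 2.70 for A_52_P523459, from 2.39 to 2.49 for A_51_P197528 and from 1.59 to 1.78 for A_52_P230938. Leaving out either array left 4 higher and 0 lower, as values with no test. For the 4 this follows from the rule, which asks for 2-fold on each array. The count of probes 2-fold lower was 0 except with the processed signals (1) and the deposited value table (1), where Ly6d reached -1.13. The ratio of Ly6d was -0.24 without background correction and -0.83 with an offset of 10. Over all probes, 78 were higher and 25 lower; these counts were 50 and 10 without background correction, 135 and 47 with an offset of 10, 80 and 16 with median centring, 199 and 85 with processed signals, 336 and 219 without array 1, and 109 and 42 without array 2. No fit was made on the value table or on single arrays. limma called 0 probes in the other settings, and with an intensity trend or robust eBayes; its smallest adjusted p ranged from 0.0503 to 0.567. No gene of the 4 related lists (Ly6/uPAR family, CD44 partners, splicing factors, GPI anchor) became 2-fold different with the mean of all probes, the processed signals or no filter. The cell type marker lists were not counted again in these settings. Among their genes, Ccr2 had log2 ratios of 3.62 on array 1 and 2.37 on array 2 with the processed signals. Signals near background limit the third Cd44 probe and Ly6d, and also dim genes of the lists, such as Has1, Ly6m, Cd79a and Ccr2. The limma fit on within-array ratios is itself the paired analysis.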
